A study of Mus musculus with 3 samples.

Results

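Interferon-stimulated antiviral genes are the transcripts that cells raise after sensing an interferon, and a list of 37 of them, defined by gene name, was followed here in memory phenotype CD4 T cells sorted from spleen, which are helper T cells with the surface phenotype of memory cells. A gene was measured where an Affymetrix probe set carried its symbol alone, and its brightest such probe set by mean over the arrays stood for it. This gave values for 35 of the 37 genes, out of 18193 named genes in all, and no value is given for Isg15 or Ifi44. The HFD group held 2 arrays (HFD 1 and HFD 2) from BALB/c mice kept on a high fat diet with 60 kcal% fat for 10 weeks, and the ND group held 1 array from BALB/c mice on a normal diet over the same time. No transgene, deletion or other treatment is named for either group. The labels give no age and do not say whether an array held 1 mouse or a pool, or whether the HFD arrays came from separate mice. The spread between them may thus be technical, and the p-values measure no more than that spread.

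Type I interferons bind the receptor chains IFNAR1 and IFNAR2, whose kinases JAK1 and TYK2 phosphorylate STAT2. STAT2 and IRF9 act within the complex ISGF3, which binds interferon-stimulated response elements (ISREs) in the promoters of antiviral genes. Interferon gamma, made by T cells themselves, signals through its own receptor to genes that carry gamma-activated sites (GAS). Resting lymphocytes keep a low level of many of these transcripts under tonic interferon signalling.

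Most of the antiviral genes were lower in HFD. Of the 35 measured genes, 34 passed a filter on low values, and limma's moderated test, adjusted over all genes tested, called 28 of them lower and 0 higher (at an unadjusted p under 0.05, limma gave 28 lower and 1 higher). Over all 10341 genes tested, 29.2% were called lower and 20.5% higher. Whatever their level, 32 of the 35 genes lay below ND on both HFD arrays, against 47.9% of all named genes, and 2 lay above it on both, against 33.1%. The median difference, HFD minus ND on the log2(intensity + 17.65) scale, was -0.67 over the 35 genes and -0.10 over all named genes, and single genes lay between -1.13 and 0.63. The 28 called genes ranged from a log2 difference of -1.13 for Ddx60 to -0.30 for Samhd1, that is from 2.19-fold to 1.23-fold lower. At least 2-fold lower on both HFD arrays was 1 gene, Ddx60, against 2.82% of all named genes, and 0 genes were at least 2-fold higher, against 4.28%.

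These calls take their spread from the pair of HFD arrays, mostly as shared over genes. They treat the single ND array as if it had the same spread. Anything else that set the ND sample apart cannot be told apart from diet, and in RNA from a whole sort, fewer cells of a type and less RNA per cell cannot be told apart either.

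**Figure D1:**
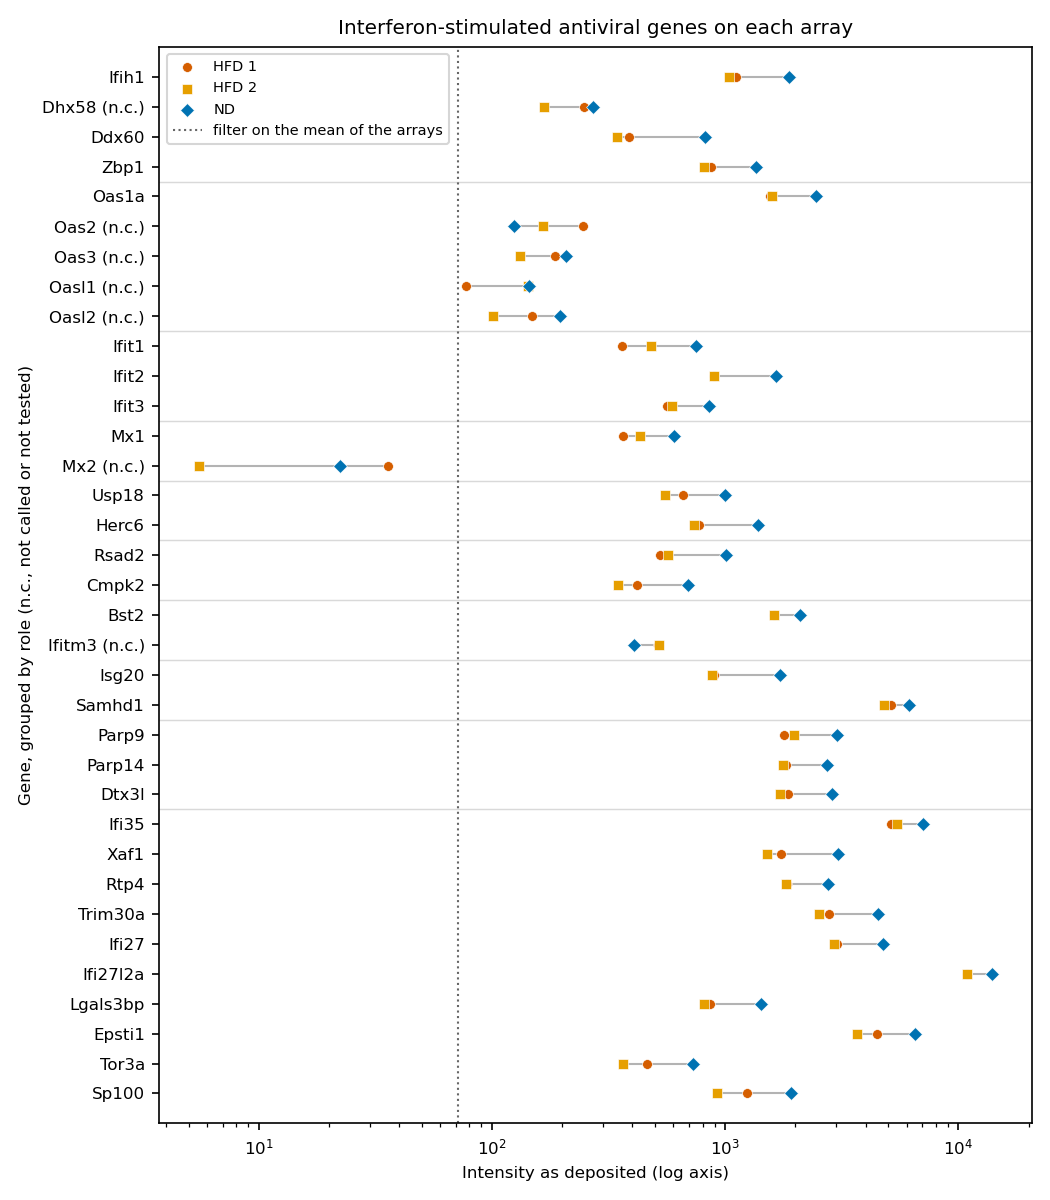
Deposited intensity (log axis) of each of the 35 measured antiviral genes on HFD 1, HFD 2 and ND, 1 point per array, grouped by role with grey rules between groups; n.c. marks genes not called or not tested, and the dotted line is the filter of 71.4 on the mean over the arrays. In 32 rows the ND point lies to the right of both HFD points, and Oas2, Ifitm3 and Mx2 are the exceptions.

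Response elements were looked for in the promoters of these genes. RefSeq windows (build GRCm38.p6) reaching 250 bases before and 50 after an annotated start were found for 25 of the 37 genes, and were searched on both strands for the ISRE core, which is GAAA, any 2 bases and GAAA, and the GAS core, which is TTC, any 3 bases and GAA. The ISRE core occurred in 11 of the 25 genes (44%), against 3.99% of the 27025 genes with a window, and the GAS core in 7 of the 25 (28%), against 9.55%. Bst2 and Ifitm3 held both, in overlapping positions, and Oas1a held both apart. The stretches below, with the ISRE core in capitals on the gene's strand (as its reverse complement where the match lies on the other strand), are from genes whose values follow.

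Ifit1: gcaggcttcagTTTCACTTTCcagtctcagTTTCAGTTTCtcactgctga
Ifit3: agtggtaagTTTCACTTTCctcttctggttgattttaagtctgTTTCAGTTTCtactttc
Oas1a: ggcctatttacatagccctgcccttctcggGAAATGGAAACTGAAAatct
Oas3: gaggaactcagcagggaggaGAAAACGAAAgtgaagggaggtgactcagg
Ddx60: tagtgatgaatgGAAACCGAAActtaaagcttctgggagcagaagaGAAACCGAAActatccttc
Rsad2: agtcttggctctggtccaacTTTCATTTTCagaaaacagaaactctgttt
Bst2: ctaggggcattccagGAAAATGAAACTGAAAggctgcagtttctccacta
Ifitm3: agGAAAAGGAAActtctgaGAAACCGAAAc

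They lie at chr19:34640774-34640823 (plus strand) for Ifit1, chr19:34583364-34583423 (plus) for Ifit3, chr5:120907526-120907575 (minus) for Oas1a, chr5:120777705-120777754 (minus) for Oas3, chr8:61928022-61928086 (plus) for Ddx60, chr12:26456543-26456592 (minus) for Rsad2, chr8:71537568-71537617 (minus) for Bst2 and chr7:141010715-141010744 (minus) for Ifitm3. The neighbouring genes Ifit1 and Ifit3 carry the same pair of elements in the same orientation, with first letters 19 bases apart in Ifit1 and 34 in Ifit3. In Oas1a and Bst2 the 2 cores overlap, and in Ifitm3 both cores lie past the annotated start. The median log2 difference was -0.69 over the 10 measured genes with the ISRE core, of which 8 were called lower. It was -0.76 over the 13 measured genes with a window but no ISRE core (11 called lower). Over the 12 genes without a window it was -0.59, with 11 past the filter and 9 of these called lower. Of all genes tested, 29.2% were called lower. Whether the core bears on the difference was not tested. A match is a description of letters in a window of the reference genome, not a site shown to be bound here.

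**Figure D2:**
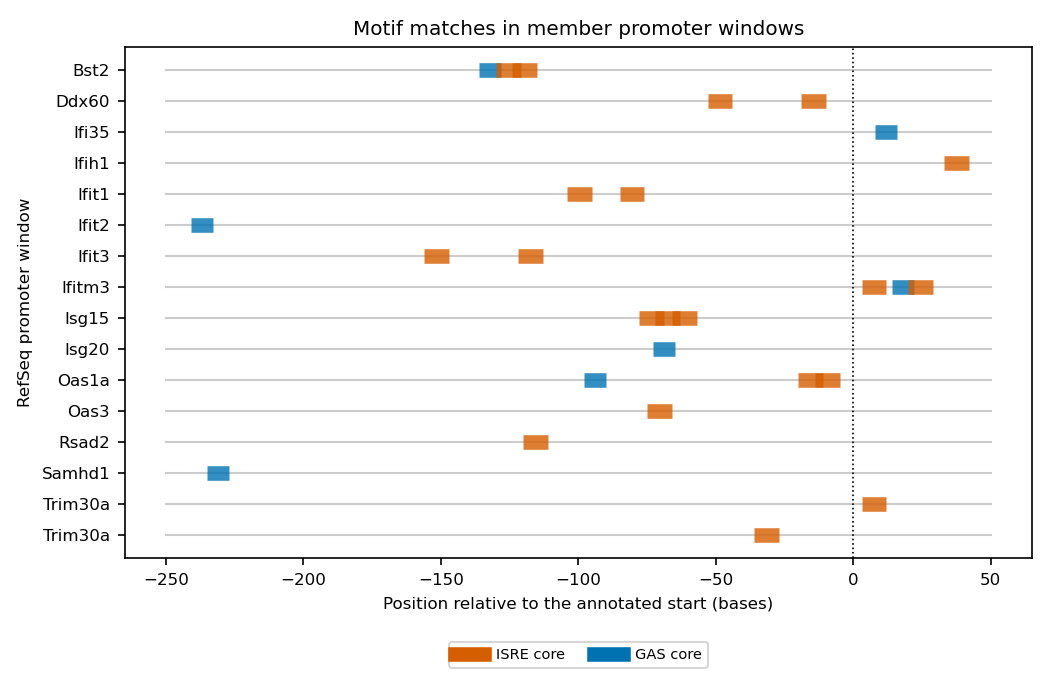
Positions of the ISRE core (orange) and the GAS core (blue) in RefSeq promoter windows of the antiviral genes that hold either, in bases relative to the annotated start (dotted line); Trim30a has 2 windows. Of the 25 genes with a window, 11 hold an ISRE core and 7 a GAS core, most of them before the start.

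The sensors of foreign nucleic acid were lower. Ddx60, a helicase linked to RNA sensing, read 385 on HFD 1 and 345 on HFD 2, against 819.7 on ND (log2 -1.13 ± 0.17 SE, adjusted p = 0.000127). The HFD arrays lay close together and well under ND, and its other probe set gave a log2 difference of -1.19. Ifih1, which encodes the double-stranded RNA sensor MDA5, read 1116 and 1036 in HFD against 1880.4 in ND (log2 -0.80 ± 0.13, adjusted p = 0.000333). Zbp1, a sensor of Z-form nucleic acid that can start necroptosis, read 871 and 814 in HFD against 1352 in ND (log2 -0.67 ± 0.14, adjusted p = 0.0015). Dhx58, encoding the regulator LGP2, was the exception: it read 249 and 168 in HFD against 272 in ND, and its HFD arrays lay further apart from each other than HFD 1 lay from ND (log2 -0.38 ± 0.25, adjusted p = 0.218).

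The oligoadenylate synthetase family, whose active enzymes make the messenger that switches on RNase L, was measured less firmly. Oas1a read 1559.9 and 1592 in HFD against 2446 in ND (log2 -0.63 ± 0.12, adjusted p = 0.000976). The other members gave dim readings and none was called. Oas3 read 187 and 132 in HFD against 208 in ND (adjusted p = 0.272), Oasl2 148 and 102 against 195 (adjusted p = 0.103), and Oasl1 77.4 and 143 against 144 (adjusted p = 0.375), so HFD 2 matched ND for Oasl1. Oas2 went the other way, with 245 and 165 in HFD against 124 in ND (log2 0.63 ± 0.27, adjusted p = 0.0722). Its ND value was the lowest of the 3, and a higher call appeared under quantile normalization (adjusted p = 0.0295) and after centring the arrays (adjusted p = 0.0102). Standard errors were 0.25 to 0.35 for these 4 genes and Dhx58, against 0.08 to 0.18 for the 28 called genes.

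Each of the 3 IFIT genes, whose proteins bind viral RNA and block its translation, was called lower. Ifit2 read 895 on each HFD array, against 1650.4 on ND (log2 -0.87 ± 0.13, adjusted p = 0.000186). Ifit1, whose protein recognises RNA caps that lack methylation, read 362 and 479 in HFD against 751 in ND (log2 -0.82 ± 0.18, adjusted p = 0.00258). Ifit3, which stabilises IFIT complexes in human cells, read 560.2 and 592 in HFD against 855 in ND (log2 -0.56 ± 0.15, adjusted p = 0.00806). No HFD value reached its ND value in any of the 3. Over all named genes, 47.9% lay below ND on both HFD arrays, and 29.2% of all genes tested were called lower.

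The Mx GTPases block viral nucleoproteins, and most laboratory mouse strains carry defective copies; RefSeq annotates both Mx1 and Mx2 as transcribed pseudogenes in the reference assembly. Mx1 read 365 and 433 in HFD against 602 in ND (log2 -0.58 ± 0.17, adjusted p = 0.0145). That call ended under quantile normalization (adjusted p = 0.0564), with no filter (adjusted p = 0.0845) and in the model lacking a variance trend (adjusted p = 0.051). Mx2, the single measured gene under the filter, read 35.7 and 5.55 in HFD against 22.3 in ND, with ND between the HFD arrays.

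The system that attaches the ubiquitin-like protein ISG15 to other proteins was represented by its deconjugating enzyme and a ligase. Usp18, the protease that removes ISG15 and also shuts off the type I interferon receptor, read 657 and 550.2 in HFD against 1002 in ND (log2 -0.72 ± 0.16, adjusted p = 0.00226). Herc6, the main ISG15 ligase of the mouse, read 775 and 738 in HFD against 1384 in ND (log2 -0.86 ± 0.14, adjusted p = 0.000285). Its 3 further probe sets gave -0.90, -0.56 and -0.25. Both enzymes were thus called lower, as were 29.2% of all genes tested. On the probe sets used, both HFD values lay below the ND value, as for 47.9% of all named genes.

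The neighbouring genes Rsad2 and Cmpk2 make viperin, which produces a chain-terminating nucleotide, and the kinase that feeds it. Rsad2 read 526 and 570.2 in HFD against 1010.2 in ND (log2 -0.86 ± 0.15, adjusted p = 0.000467), and its 2 further probe sets gave -0.86 and -0.59. Cmpk2 read 419.6 and 348 in HFD against 695 in ND (log2 -0.83 ± 0.17, adjusted p = 0.00166). The pair differed by almost the same amount, but the dimmer probe set of Cmpk2 gave -0.08, and averaging the probe sets ended the call (adjusted p = 0.160).

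Membrane restriction factors split. Bst2, or tetherin, which holds budding virions on the cell surface and in mice also marks plasmacytoid dendritic cells, read 1616 and 1613 in HFD against 2098 in ND (log2 -0.37 ± 0.12, adjusted p = 0.022), a call that ended after centring the arrays (adjusted p = 0.191) and in the model lacking a variance trend (adjusted p = 0.0795). Ifitm3, which blocks virus entry at endosomes, read 515 and 518 in HFD against 407 in ND (log2 0.33 ± 0.16, adjusted p = 0.106), with a higher call under quantile normalization (adjusted p = 0.0287) and after centring the arrays (adjusted p = 0.0166). Its relative Ifitm2 rose, at 254 and 250.4 in HFD against 127 in ND (log2 0.90 ± 0.23, adjusted p = 0.00518; adjusted p = 0.0599 with no filter). Ifitm1, chosen after its values were seen, read 423 and 186 in HFD against 203 in ND, with ND between the HFD arrays. It was called higher only after centring (adjusted p = 0.0215), although its HFD arrays lay 1.11 apart on the log2 scale. The IFITM genes thus gave no lower call, where 29.2% of all genes tested did. Ifitm3 and Ifitm2 lay above ND on both HFD arrays, as did 33.1% of all named genes.

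Enzymes acting on nucleic acids and nucleotides were lower to different degrees. Isg20, an RNA exonuclease, read 899 and 877 in HFD against 1712 in ND (log2 -0.93 ± 0.13, adjusted p = 0.000108). Samhd1, which hydrolyses deoxynucleotides and so limits retroviruses, read 5126 and 4795 in HFD against 6126 in ND (log2 -0.30 ± 0.10, adjusted p = 0.0223). Its call ended after centring (adjusted p = 0.336), with no filter (adjusted p = 0.0756) and in the model lacking a variance trend (adjusted p = 0.134), although its 4 further probe sets also lay lower, at -0.57 to -0.27. Parp9 and Dtx3l act together as an ADP-ribosyltransferase and ubiquitin ligase complex. Parp9 read 1790.7 and 1978 in HFD against 3002 in ND (log2 -0.67 ± 0.12), and Dtx3l read 1854 and 1710.3 in HFD against 2861 in ND (log2 -0.68 ± 0.12). Parp14, another ADP-ribosyltransferase, read 1827 and 1776 in HFD against 2719 in ND (log2 -0.59 ± 0.12, adjusted p = 0.0013). A dimmer probe set of Parp14 gave a log2 difference of -0.0022, and with the probe sets averaged its call ended (adjusted p = 0.123).

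The remaining 10 measured genes were each called lower, beside 29.2% of all genes tested. Xaf1, a pro-apoptotic antagonist of XIAP, read 1727 and 1509 in HFD against 3046 in ND (log2 -0.91 ± 0.13, adjusted p = 9.6e-05), and Sp100, a nuclear body protein, read 1239.6 and 925 in HFD against 1911 in ND (log2 -0.83 ± 0.16). Tor3a, an ATPase of the endoplasmic reticulum, read 463 and 365 in HFD against 731 in ND (log2 -0.80 ± 0.18). Trim30a, a mouse TRIM protein that restrains NF-kappaB signalling, read 2791 and 2532 in HFD against 4518 in ND (log2 -0.76 ± 0.11). Lgals3bp, a secreted galectin-binding protein, read 863 and 810.4 in HFD against 1424 in ND (log2 -0.76 ± 0.14). These 5 genes were 1.69 to 1.88-fold lower and kept their call in each of the 9 alternatives with a test in which they were tested.

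Epsti1 read 4458 and 3681 in HFD against 6483 in ND (log2 -0.68 ± 0.12), and Ifi27, a mitochondrial protein gene, read 3014 and 2929 in HFD against 4727 in ND (log2 -0.67 ± 0.11). Rtp4, which encodes a chaperone of opioid receptors with antiviral activity, read 1839 and 1824 in HFD against 2764 in ND (log2 -0.59 ± 0.12, adjusted p = 0.00125; adjusted p = 0.0673 with the probe sets averaged). The smallest differences of this group were those of Ifi35, at 5142 and 5463 in HFD against 7022 in ND (log2 -0.40 ± 0.10), and of Ifi27l2a, at 10846 and 10912 in HFD against 13972 in ND (log2 -0.36 ± 0.08). With arrays centred, which takes up the general shift between arrays, neither was called (adjusted p = 0.0861 for Ifi35 and 0.145 for Ifi27l2a), nor was either in the model lacking a variance trend (adjusted p = 0.0728 and 0.0864). Several of the genes, such as those of the Oas, Mx, Trim30, Sp100 and Ifi27-like families, have close paralogs, and the brightest probe sets of Ifi35 and Tor3a carry the suffix that Affymetrix gives to sets matching several transcripts, so some signal may come from relatives.

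Ordered by difference, Ddx60 came first, followed by Isg20, Xaf1, Ifit2, Rsad2 and Herc6 (log2 -0.93 to -0.86), and from Isg20 on these neighbours lay closer together than their standard errors of 0.13 to 0.15. The HFD arrays resembled each other: the median absolute difference between them was 0.12 over the 35 genes and 0.18 over all named genes (log2). All named genes include the dim ones under the filter, so these medians cover unlike intensities. The T cell identity genes given below had a median of 0.07. HFD 2 lay below HFD 1 for 25 of the 35 genes, with a median difference, HFD 2 minus HFD 1, of -0.09 on the log2 scale against 0.0012 over all named genes. Taken alone against ND, HFD 1 gave a median of -0.62 and HFD 2 a median of -0.72. Probe sets that were not used for the calls went the same way for the most part. The 17 genes with several probe sets had 28 further ones, of which 24 passed the filter, and 22 of these 24 were lower on both HFD arrays (median log2 difference -0.56). These sets read the same genes on the same arrays, so they are no separate check on the ND sample. The matching share over further probe sets of all genes was not computed.

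Other interferon-stimulated genes, a list of 69 named genes that are not among the 37, showed much the same lower level. Of 62 measured, 59 passed the filter, with 47 called lower and 3 higher, beside the 29.2% and 20.5% of all genes tested, and the median log2 difference over the 62 was -0.58. Uba7, the enzyme that activates ISG15 for conjugation, read 739 and 581 in HFD against 1521 in ND (log2 -1.19 ± 0.16), and Aim2, a DNA sensor that forms inflammasomes, read 247 and 218 in HFD against 514 in ND (log2 -1.09 ± 0.19). Znfx1, an interferon-induced helicase, was 2.31-fold and Xdh, or xanthine dehydrogenase, 2.29-fold lower. These 4 genes had the largest decreases when each was ranked by the smaller of its differences on the HFD arrays. Cxcl10, a chemokine gene chosen after its values were seen, read 286 and 416 in HFD against 791 in ND, so that its mean log2 difference of -1.15 lay past that of Aim2. The 3 higher calls were Ifitm2, given above, the peptide-trimming aminopeptidase Lap3 and the proteasome activator Psme1. Lap3 read 1951 and 2428 in HFD against 427 in ND, 4.94-fold higher (adjusted p = 1.4e-07). Psme1 read 13709 and 13925 in HFD against 11923 in ND, and its call (adjusted p = 0.0389) ended under 5 of the 9 alternatives with a test.

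Upstream, the receptor and transducer genes were lower or not called, where 29.2% of all genes tested were called lower and 20.5% higher. The genes of interferon ligands were mostly too dim: of 10 measured, 8 lay under the filter, Ifng was called lower and Ifnz, chosen after its values were seen, was not called (log2 -0.17 ± 0.21). Ifng read 2622 and 1795 in HFD against 5285 in ND (log2 -1.28 ± 0.17, adjusted p = 6.7e-05). Of 6 receptor chains, 5 passed the filter, 3 were called lower and 0 higher (0 higher also at an unadjusted limma p under 0.05). Ifnar2, the high-affinity chain of the type I receptor, read 1552 and 1358 in HFD against 2897 in ND (log2 -0.99 ± 0.13, adjusted p = 5.4e-05), and Il10rb, a chain shared by interferon lambda and interleukin-10 receptors, read 1859.9 and 1762 in HFD against 2875 in ND (log2 -0.66 ± 0.12). Ifnar1 read 1136 and 1049.6 in HFD against 1432 in ND (log2 -0.39 ± 0.13, adjusted p = 0.0298), but the call ended after centring (adjusted p = 0.192), with no filter (adjusted p = 0.0705), with the probe sets averaged (adjusted p = 0.0799) and in the model lacking a variance trend (adjusted p = 0.0852). The chains of the interferon gamma receptor were not called: Ifngr1 read 2512 and 2597 in HFD against 2731 in ND (adjusted p = 0.505), and Ifngr2, chosen after its values were seen, 199 and 205 in HFD against 151 in ND.

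Among 12 measured genes of JAK kinases, STATs and IRFs, 8 were called lower and 0 higher (limma gave 9 and 0 at an unadjusted p under 0.05), with a median log2 difference of -0.42. The shares over all genes tested were 29.2% lower and 20.5% higher. Irf7, the factor that amplifies interferon alpha production and is itself interferon-induced, read 616 and 462 in HFD against 934 in ND (log2 -0.79 ± 0.18, adjusted p = 0.00278). Irf9, the DNA-binding part of ISGF3, read 1228 and 1083 in HFD against 1810.3 in ND (log2 -0.64 ± 0.14, adjusted p = 0.0018). Irf2 was 1.56-fold and Jak1 1.42-fold lower. Tyk2 and Irf1 were called at 1.28-fold and 1.32-fold lower, and both calls ended with arrays centred (adjusted p = 0.261 for Tyk2 and 0.0929 for Irf1) and in the model lacking a variance trend (adjusted p = 0.106 and 0.0679). That of Tyk2 ended with no filter as well (adjusted p = 0.0834). Stat2 read 103 and 101 in HFD against 161 in ND (adjusted p = 0.116), and was called lower with its probe sets averaged (adjusted p = 0.0255) and in the model lacking a variance trend (adjusted p = 0.0317). Irf3 was not called at 1.18-fold lower (adjusted p = 0.0871), but was under quantile normalization (adjusted p = 0.0332).

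Of 14 sensors and adaptors that start interferon production, 11 passed the filter, 4 were called lower and 0 higher (limma likewise gave 4 and 0 at an unadjusted p under 0.05), shares not far from the background in the lower direction. They were Ddx58, encoding the RNA sensor RIG-I (953 and 886 in HFD against 1643 in ND), the adaptor Sting1 (1733 and 1551 in HFD against 2798 in ND), the kinase gene Ikbke (1.56-fold lower) and the endosomal RNA receptor gene Tlr7, whose call (adjusted p = 0.0449) ended under 5 of the 9 alternatives with a test (adjusted p = 0.0738 to 0.207). Of 15 inhibitors of the pathway, 8 were called lower and 3 higher, beside 29.2% and 20.5% of all genes tested. The share of inhibitors called higher was thus near that of all genes. Foxo3, a forkhead factor that represses antiviral genes in macrophages, was 2.31-fold lower, the STAT inhibitor gene Pias3 1.78-fold, Trim24, a chromatin reader that restrains this response in mouse liver, 1.64-fold, and the corepressor gene Irf2bp2 1.56-fold lower. Trim28, a corepressor, was 1.90-fold higher and the STAT regulators Pias2 and Pias4 were 1.66 and 1.35-fold higher. The call of Pias4 (adjusted p = 0.0451) ended with no filter (adjusted p = 0.147), with the probe sets averaged (adjusted p = 0.219) and in the model lacking a variance trend (adjusted p = 0.102). Socs1, the feedback inhibitor of JAK kinases, read 256 and 173 in HFD against 253 in ND (adjusted p = 0.437), with ND between the HFD arrays.

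**Figure D3:**
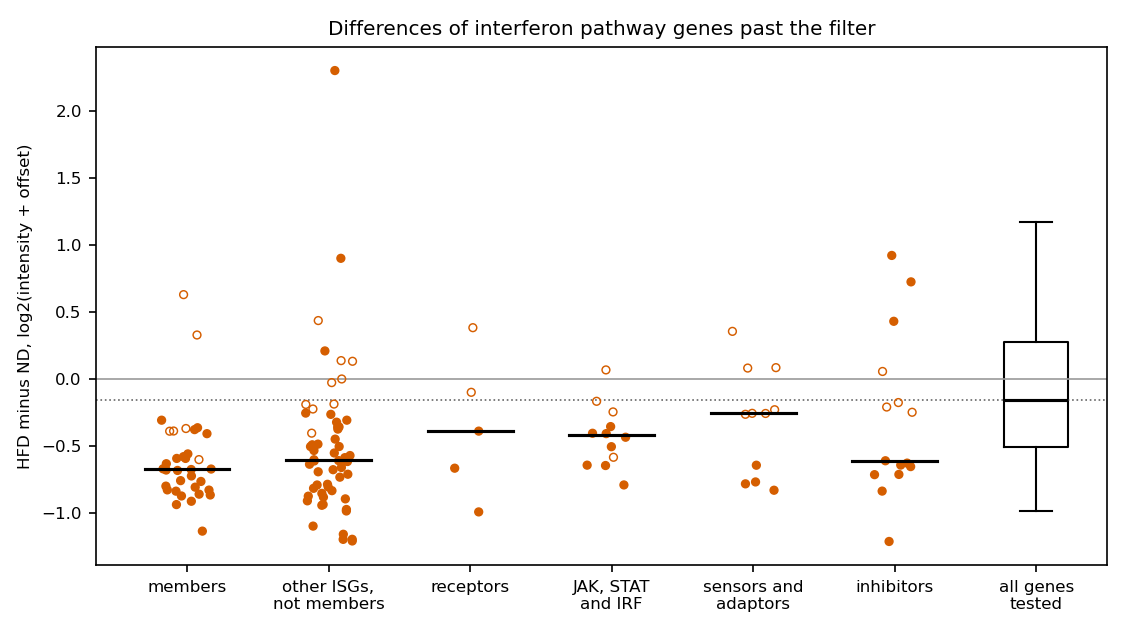
Difference HFD minus ND (log2 of intensity plus the offset) of each gene past the filter, by list; filled points were called by limma, open ones were not, bars are medians, and the box gives the quartiles of all 10341 genes tested with whiskers at the 5th and 95th percentile. Of the antiviral genes, 28 of 34 points are filled and all 28 lie below 0, while the dotted line marks the median of all genes tested at -0.15.

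Markers of other cells moved as well. The counts called per list stand beside 29.2% lower and 20.5% higher over all genes tested. The T cell genes stood high on each array, and of 10 measured T cell identity genes 7 were called lower, with Cd3e at 2558 and 2426 in HFD against 4167 in ND and Cd4 at 609 and 377 in HFD against 911 in ND (adjusted p = 0.00479, but 0.0903 with no filter and 0.0780 in the model lacking a variance trend). The list for plasmacytoid dendritic cells, the main makers of type I interferon, had 9 of 10 genes called lower and summed to 3782 and 4478 in HFD against 9775 in ND. The largest part of that sum was Ccr9, chosen after its values were seen, at 1295 and 1519 in HFD against 3812 in ND. Whether the transcripts of this list came from plasmacytoid dendritic cells or from other cells in the sort, T cells among them, was not tested. The list's defining marker Siglech read 338 and 407 in HFD against 956 in ND. The macrophage and monocyte list had 17 measured genes, 10 past the filter and 9 of these called lower, and summed to 2786 and 2694 in HFD against 5667 in ND, with Csf1r at 224 and 296 in HFD against 743 in ND and Adgre1, not called (adjusted p = 0.0576, but 0.0316 to 0.0486 under 3 alternatives), at 101 and 119 in HFD against 188 in ND. The 35 antiviral genes summed to 55447 and 53323 in HFD against 80935 in ND. No defining marker measured was at 0, and the part of these cells in the lower antiviral genes was not tested.

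Of 7 conventional dendritic cell genes past the filter, Cd209a, Flt3, H2-DMb2 and Itgax were called lower and Ccl22 higher (sums 1044 and 1253 in HFD against 1596 in ND, Zbtb46 at 137 and 113 in HFD against 135 in ND). Without Ccl22 this list summed to 743 and 878 in HFD against 1561 in ND. Of 10 measured B cell genes, 5 lay below and 5 above ND on both HFD arrays, and of the 5 past the filter Ms4a1 and Fcer2a were called higher and Cd22 lower. The list summed to 3244 and 3494 in HFD against 1589 in ND, a difference carried by Ms4a1 (1612 and 1837 in HFD against 56.8 in ND) and Fcer2a (524 and 644 in HFD against 31.6 in ND). Its other 8 genes summed to 1108 and 1012 in HFD against 1501.0 in ND. Of 3 neutrophil genes S100a8 and S100a9 were called higher (sums 630 and 763 in HFD against 247 in ND, S100a8 at 247 and 362 in HFD against 40.9 in ND, the other 7 genes summing to 200.2 and 269 in HFD against 200.3 in ND), and of 4 NK cell genes Eomes and Gzma (sums 1414 and 1529 in HFD against 1089 in ND, Ncr1 at 66.9 and 82.8 in HFD against 46.2 in ND). Without Eomes and Gzma the NK cell list summed to 508 and 550 in HFD against 500 in ND. The 5 erythroid genes lay under the filter (sums 126 and 40.6 in HFD against 133 in ND). Genes named here beside the defining markers were chosen after their values were seen.

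H2-Ea, a class II histocompatibility gene that BALB/c mice express and C57BL/6 mice do not because of a promoter deletion, read 536 and 602 in HFD against 11.5 in ND. The labels give BALB/c for each array. Diet, strain and any other feature of the ND sample cannot be told apart.

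**Figure D4:**
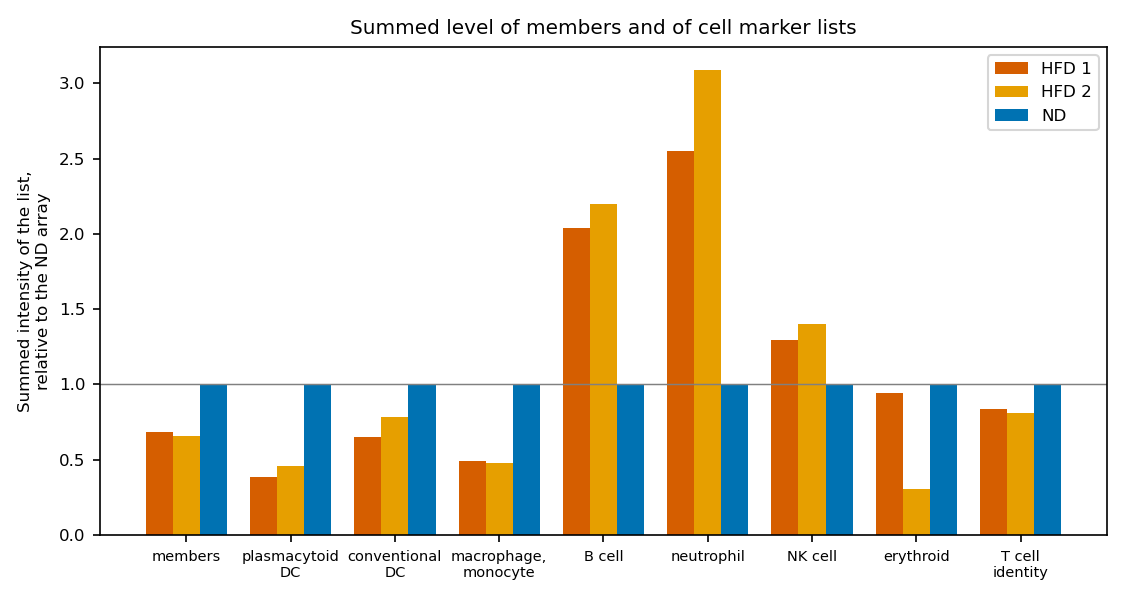
Summed intensity of the antiviral genes (first group of bars) and of each cell marker list on HFD 1, HFD 2 and ND, divided by the sum on ND. The antiviral genes sum to 0.685 and 0.659 of ND on HFD 1 and HFD 2, and the plasmacytoid dendritic cell list to 0.387 and 0.458.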

How the data were processed

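The authors deposited a linear intensity for each probe set and array. Per the submitters' processing notes they used GCOS, Affymetrix's array software; for its algorithm, version and background correction, nothing is given in the sources used here. The mean after trimming 2% of values off each end is 500.0 on every array, so arrays were scaled to a common mean. Medians were 69.7 and 67.4 on the HFD arrays and 78.3 on ND. The number of arrays limits the precision.

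Controls (64) were set apart. Of 45037 probe sets, 34945 had 1 gene symbol, 932 several and 9160 none; only the first were named. Values became log2(intensity + 17.65), the offset being their 25th percentile. Genes with a mean above 71.4, the median, were tested with limma 3.58.1 in R 4.3.3 (lmFit, eBayes with trend), two-sided, Benjamini-Hochberg adjusted over 10341 genes, called at 0.05. The residual has 1 degree of freedom (11.7 prior). In simulated HFD against ND arrays (10341 genes, 200 changed) 86% of log2 changes of 1 and 95% of 2 were recovered, with the ND array made to vary like HFD. In the data 5132 genes were called. Each called antiviral gene except Ddx60 differed by less than 1, a size at which recovery was not simulated.

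The genes, lists and tests were chosen with earlier results of these data known. The naming rule took every antiviral gene, up to 4 called genes per direction from each pathway list, and fixed transducers and markers. Motifs were searched in RefSeq windows (GRCm38.p6). Alternatives covered normalization, offset, filter, probe sets, variance model and leaving out each HFD array.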

Additional observations from a re-analysis of the deposited data

How the results depend on the processing

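Of the 28 antiviral genes called lower, 20 kept the call in each alternative with a test in which they were tested. The exceptions were Mx1, Cmpk2, Bst2, Samhd1, Parp14, Ifi35, Rtp4 and Ifi27l2a. The count called lower ran from 23 without a variance trend and 24 with arrays centred to 28 with either other offset or the robust model, while the share of all genes tested called lower ran from 10.6% with no filter to 35.5% with the stricter filter. The count called higher was 2 (Oas2 and Ifitm3) under quantile normalization and with arrays centred. With arrays centred, limma's adjusted p-values reached 1.1e-66 for H2-Ea and 2.3e-60 for Lap3, against 2.6e-08 and 1.4e-07 in the main setting. A residual of 1 degree of freedom cannot give such values by itself. Calls in the centred run thus rest on a spread shared over genes more than on each gene's own spread. The calls of the main setting do so too, with 11.7 prior degrees of freedom against 1 residual. The median log2 difference was -0.51 with arrays centred, and -0.72 and -0.62 without HFD replicate 1 and 2; relative to all named genes it was -0.57 in the main setting and with arrays centred, since centring takes up the general shift. The number at least 2-fold lower was 0 under quantile normalization, with arrays centred and with the offset at the median, and 2 to 3 without either HFD array. Of the pathway genes, 71 were called lower and 6 higher, against 47 and 3 with no filter, where 18193 genes are tested. With arrays centred, 50 were called lower and 9 higher. Signs turned for uncalled genes: Zbtb46 (main -0.09) read 0.0791 under quantile normalization, 0.0594 with arrays centred, and -0.22 and 0.0265 without HFD replicate 1 and 2. Ifngr1 read 0.0578 with arrays centred. Ifitm1 read -0.12 and 0.9961 without HFD replicate 1 and 2, and Socs1 -0.51 and 0.0179. Leaving out an HFD array leaves 1 array a group and no test. No paired analysis was possible because ND has 1 array and its label carries no replicate number. Where a call ended for another reason than fewer or more genes tested, the cause was not tested.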
